A study of Homo sapiens with 18 samples.

Results

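The unfolded protein response and the chaperones of the endoplasmic reticulum (ER) were followed through 32 genes, named by symbol, in 6 groups of human prostate cancer cells. A gene was tested where a probe carrying its symbol was above background (detection p under 0.05) on 3 or more of 18 arrays, and its brightest such probe stood for it. By this rule 29 of the 32 genes were tested, among 13680 genes in all, from 36 of 38 probes. ERN1, which encodes the sensor IRE1, and PDIA3, an isomerase of glycoproteins, had 1 probe each that was above background on 0 of 18 arrays, and HERPUD1, an adaptor of protein degradation, is covered here by its promoter only, its expression being not analysed here.

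The ER folds the proteins that enter the secretory pathway, with chaperones that hold unfolded chains, lectins that read their sugars and isomerases that form their disulfide bonds. When unfolded proteins accumulate, the sensors IRE1, PERK and ATF6 in its membrane raise the transcription of these folding factors and of ER-associated degradation (ERAD), which returns misfolded proteins to the cytosol for breakdown. IRE1 acts by splicing XBP1 RNA and ATF6 by being cut in the Golgi, and both resulting factors bind ER stress elements in promoters. Prostate epithelium is a secretory tissue, and the androgen receptor is known to act on the IRE1 branch in prostate cancer cells. Neither XBP1 splicing nor ATF6 cleavage was measured on these arrays.

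Total RNA was measured on Illumina bead arrays, 3 per group, to follow what galectin-4 does to gene expression in prostate cancer cells. Galectin-4, the product of LGALS4, is a lectin for galactose-bearing glycans. In 22Rv1-tetO-Gal4 and LNCaP-tetO-Gal4 cells a galectin-4 construct stood under a doxycycline (Dox) responsive promoter, and cells with Dox were set against cells without Dox. In 22Rv1-M4 cells a galectin-4 knockdown (M4-shGal4) was set against a scramble control (M4-shCtrl). 22Rv1 and LNCaP are established androgen-responsive prostate cancer lines. Every Dox-treated group carried the construct, so an effect of Dox and one of galectin-4 cannot be told apart, and the labels give neither dose nor duration. They also do not say whether replicates were separate cultures, and the p-values cover no more than the spread of these samples, possibly a technical one. In bulk RNA, fewer cells of a type and less RNA per cell cannot be told apart.

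LGALS4 was read first. Its log2 levels were 5.85, 5.68 and 6.00 in 22Rv1 with Dox, against 5.91, 5.96 and 5.84 without Dox, so the groups overlapped and the construct's target did not differ by more than the spread (log2 fold change -0.06 ± 0.22 (SE), adjusted p = 0.874). In LNCaP they were 5.73, 6.79 and 6.96 with Dox, and not above background on any array without Dox, which makes the rise at least 3.41-fold (adjusted p = 1.06e-05). In 22Rv1-M4 they were 5.32, 4.79 and 4.87 in the knockdown, against 12.41, 12.46 and 12.46 in scramble (-7.45 ± 0.22, adjusted p = 5.17e-16). The direction of the 22Rv1 comparison therefore rests on its labels alone, and these cells are called 22Rv1 labelled as with and without Dox.

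Mean intensity per array was 305.6 to 403.5, 41.9% to 45.1% of 47303 probes were above background, and arrays of a group correlated at 0.976 to 0.995 across genes. An axis that held 24.8% of the variation within groups set apart 22Rv1 Dox replicate 2 (23.1 from its group's mean), 22Rv1 Dox replicate 3 (-25.4) and M4 scramble replicate 3 (17.8). Its scores were 24.5 to 26.7 in LNCaP with Dox, against -14.5 to -3.35 without. Of the prostate luminal markers, KLK2, HOXB13, FOLH1, KRT8, KRT18 and EPCAM were above background on 3 of 3 arrays of every group, TMPRSS2 likewise except for 2 of 3 in M4 scramble, and KLK3 only in the LNCaP groups. The leukocyte markers PTPRC and CD3E, the plasma cell markers TNFRSF17 and JCHAIN and the endothelial marker CDH5 were above background on 0 arrays. Other markers of these lists were detected: CD14 and MZB1 on 2 or 3 of 3 arrays of every group, VWF on 3 of 3 in both LNCaP groups and on 0 elsewhere, and PECAM1 on 0 to 2 of 3. Of the fibroblast markers COL1A1 was above background on every array, DCN on 3 of 3 in M4 scramble and on 0 elsewhere, and the mean log2 level of LUM was 6.96 in 22Rv1 with Dox, against 5.58 without. Of 3 fibroblast markers tested, 2 rose in 22Rv1 Dox, 0 were called in LNCaP Dox and 1 fell in the knockdown. Of 3 hepatocyte markers tested, 2 fell in 22Rv1 Dox, 1 in LNCaP Dox and 3 in the knockdown, and the mean log2 level of ALB was 7.92 in 22Rv1 with Dox, against 13.48 without. SDC1, a plasma cell marker that epithelium also expresses, averaged 10.02 with Dox in 22Rv1, against 8.53 without. The part of these markers in the results was not tested.

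In 22Rv1 cells labelled as with Dox, 14 of the 29 ER genes fell and 3 rose, and the falls took in the ER's HSP70 and HSP90 (HSPA5 and HSP90B1), the lectin chaperone CALR and both secretable stress proteins, CRELD2 and MANF. Of all genes, 24.8% passed this test, 15.7% lower and 9.14% higher, beside 58.6% of the ER genes. The ER genes were chosen with earlier results of these data known. Their shares, here and in the other comparisons, therefore describe the list and are no test of it. The median log2 fold change of the ER genes was -0.41, against -0.06 over all genes tested. In LNCaP with Dox, 10 ER genes fell and 4 rose, 48.3% of the 29 beside 27.8% of all genes (17.0% lower, 10.9% higher). In the M4 knockdown 8 fell and 3 rose, 37.9% beside 23.3% of all genes (10.3% lower, 13.0% higher). Calls rest on a limma model of all arrays and an adjusted p (Benjamini-Hochberg, all 13680 genes) under 0.05, and changes are log2 fold changes with their standard error (SE).

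**Figure D1:**
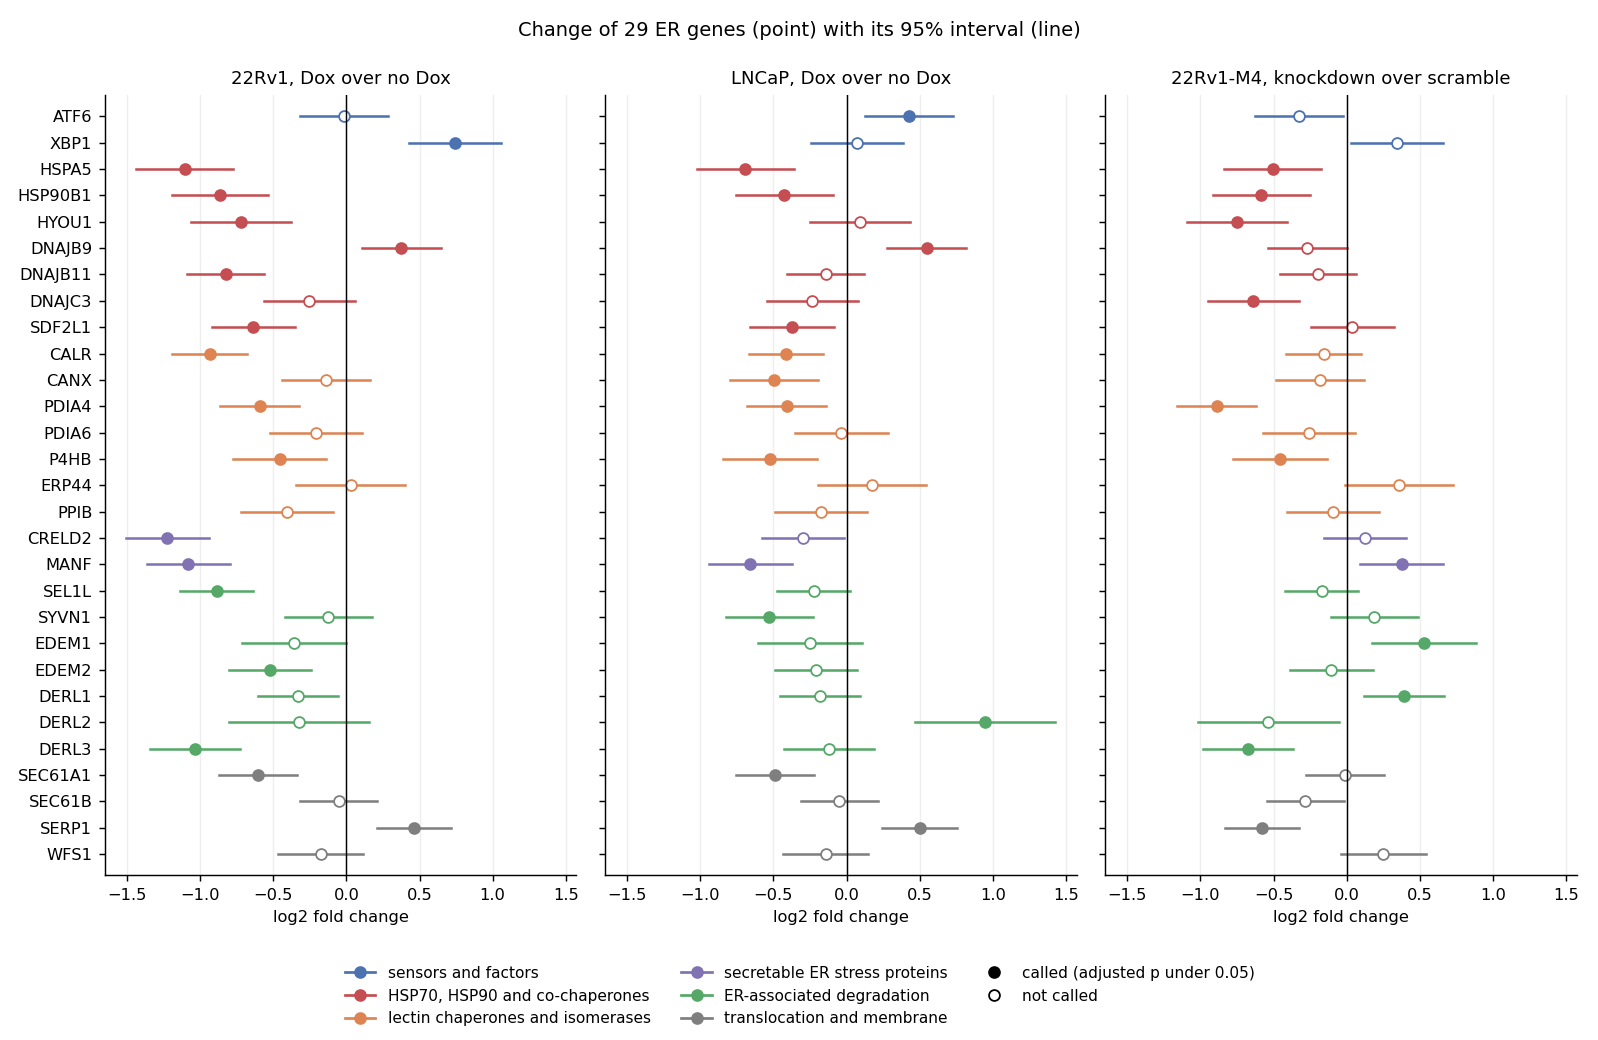
Log2 fold change (x axis, point) with its 95% interval (line) of the 29 ER genes tested, by role, for Dox over no Dox in 22Rv1 (left) and LNCaP (middle) and knockdown over scramble in 22Rv1-M4 (right), with 3 arrays a group. Filled points passed an adjusted p under 0.05: 17 in 22Rv1, 14 in LNCaP and 11 in the knockdown, and most of them lie left of 0.

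The promoters of these genes are shown first, since they hold the letters that ATF6 and XBP1 are known to bind. In RefSeq promoters (GRCh38.p14, 250 bases before to 50 after the start site), 36 promoters matched 29 of the 32 genes. DERL1, DERL3 and PDIA3 were not matched. Both strands were searched for the ER stress element, which is CCAAT and CCACG with 9 bases between them. It stood in the promoters of 8 of 29 ER genes (27.6%), against 17 of 27276 other genes (0.0623%). A second form, ERSE-II, is ATTGG and CCACG with 1 base between. It stood in those of HYOU1, SDF2L1 and HERPUD1, so 11 of 29 ER genes (37.9%) held either form, against 33 other genes (0.121%). The UPR element, TGACGTG followed by G or A, stood in 1 of the 36 promoters (2.78%), that of HYOU1, where it overlaps an ERSE-II, and in 1.18% of all 35116 promoters. These genes are known targets of the response, so the shares describe the list, and a match is a description, not a bound site.

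These stretches run 5′ to 3′ along each gene, with the element in capitals. An element on the opposite strand reads as CGTGG before ATTGG, or before CCAAT in ERSE-II. They are shown for the genes whose changes are given first, 2 of which (XBP1 and SERP1) moved against the rest. The HSPA5 stretch lies at chr9:125241376-125241424 on the minus strand, HSP90B1 at chr12:103930201-103930249 on the plus strand and CALR at chr19:12938369-12938417 on the plus strand. That of CRELD2 lies at chr22:49918539-49918587 on the plus strand, SDF2L1 at chr22:21642099-21642139 on the plus strand and HYOU1 at chr11:119057259-119057299 on the minus strand. That of XBP1 lies at chr22:28800588-28800636 on the minus strand and SERP1 at chr3:150546695-150546743 on the minus strand.
HSPA5: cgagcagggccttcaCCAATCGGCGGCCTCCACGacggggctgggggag
HSP90B1: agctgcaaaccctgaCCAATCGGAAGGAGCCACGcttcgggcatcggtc
CALR: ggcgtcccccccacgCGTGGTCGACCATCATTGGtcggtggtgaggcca
CRELD2: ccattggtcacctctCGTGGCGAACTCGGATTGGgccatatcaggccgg
SDF2L1: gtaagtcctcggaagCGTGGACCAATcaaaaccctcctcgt
HYOU1: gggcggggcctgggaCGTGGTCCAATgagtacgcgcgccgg
XBP1: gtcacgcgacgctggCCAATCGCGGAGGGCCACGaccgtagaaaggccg
SERP1: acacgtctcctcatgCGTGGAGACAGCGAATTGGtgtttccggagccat

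The elements lie at different places relative to the start site. That of HSPA5 spans bases -66 to -48, that of XBP1 -52 to -34 and that of CRELD2 -80 to -62, while those of CALR (-225 to -207) and SERP1 (-232 to -214) lie farther out. HSP90B1 holds a further element at -89 to -71 and HYOU1 a further ERSE-II at -185 to -175. PDIA6 (-86 to -68) and CANX also hold an ER stress element, and both were among the genes not called in 22Rv1 Dox. For the largest chaperone change, that of HSPA5, the whole promoter window at chr9:125241294-125241593 on the minus strand is shown with its element in capitals.
HSPA5: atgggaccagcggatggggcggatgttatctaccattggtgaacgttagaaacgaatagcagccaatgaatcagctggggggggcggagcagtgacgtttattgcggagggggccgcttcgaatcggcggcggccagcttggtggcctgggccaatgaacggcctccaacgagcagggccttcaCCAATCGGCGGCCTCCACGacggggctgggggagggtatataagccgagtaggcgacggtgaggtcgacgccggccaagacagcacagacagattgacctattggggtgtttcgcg

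Of the sensors and factors in 22Rv1, XBP1 rose with Dox. Its log2 levels were 11.56, 11.31 and 11.75 with Dox, against 10.74, 10.84 and 10.82 without. All 3 Dox arrays lay above all 3 without Dox, a 1.67-fold difference (0.74 ± 0.15, adjusted p = 0.00109). A second XBP1 probe gave 0.51 ± 0.17. ATF6, the sensor that becomes a transcription factor, had 7.70, 7.59 and 7.85 with Dox, against 7.74, 7.73 and 7.73 without (-0.02 ± 0.14, adjusted p = 0.947), and its groups overlapped.

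Among the HSP70 and HSP90 chaperones and their co-chaperones, 5 of 7 fell in 22Rv1 Dox and 1 rose. HSPA5 (BiP), the ER's HSP70 and the chaperone that holds the sensors inactive, had log2 levels of 6.91, 6.81 and 7.27 with Dox, against 8.11, 8.07 and 8.12 without. Every Dox array lay below every array without Dox, by 2.15-fold on average (-1.11 ± 0.16, adjusted p = 3.22e-05). HSP90B1 (GRP94), the ER's HSP90, had 12.11, 12.12 and 12.50 with Dox, against 13.09, 13.14 and 13.10 without (-0.87 ± 0.16, adjusted p = 0.000386), again without overlap. DNAJB11, a J protein that brings substrates to HSPA5, had 9.94, 9.96 and 10.33 with Dox, against 10.89, 10.93 and 10.89 without (-0.82 ± 0.13, adjusted p = 6.43e-05). HYOU1, which exchanges the nucleotide of HSPA5, fell by 0.72 ± 0.16 (adjusted p = 0.0025), and its second probe gave -0.99 ± 0.17. SDF2L1, a partner of DNAJB11, fell by 0.64 ± 0.14 (adjusted p = 0.00167). In all of these the groups did not overlap.

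DNAJB9, a J protein that returns IRE1 to HSPA5, went against them. It had 8.34, 8.47 and 8.04 with Dox, against 7.91, 7.90 and 7.92 without, with no overlap (0.37 ± 0.13, adjusted p = 0.0396). DNAJC3 (P58IPK), which also binds HSPA5, had 5.02, 5.21 and 4.52 with Dox, the lowest of these not above background, against 5.18, 5.12 and 5.21 without, and was not called (-0.25 ± 0.15, adjusted p = 0.239).

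Of the lectin chaperones and isomerases, 3 of 7 fell in 22Rv1 Dox and none rose. CALR (calreticulin), a soluble lectin and calcium store, had 9.37, 9.20 and 9.64 with Dox, against 10.39, 10.27 and 10.37 without, a 1.91-fold difference with no overlap (-0.94 ± 0.12, adjusted p = 1.12e-05). Its membrane-bound partner CANX (calnexin) had 7.17, 7.37 and 7.41 with Dox, against 7.39, 7.50 and 7.48 without, and was not called (-0.14 ± 0.15, adjusted p = 0.53). PDIA4, a disulfide isomerase, fell by 0.59 ± 0.13 without overlap (adjusted p = 0.00193). P4HB, the classical disulfide isomerase, had 10.61, 10.27 and 11.03 with Dox, against 11.07, 10.98 and 11.23 without, so the called difference (-0.46 ± 0.15, adjusted p = 0.0337) came with overlapping arrays. The other members were not called: PDIA6 (-0.21 ± 0.15), the thiol retention factor ERP44 (0.03 ± 0.18) and the prolyl isomerase PPIB (-0.41 ± 0.15), with adjusted p = 0.352, 0.93 and 0.0533.

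Both secretable ER stress proteins fell in 22Rv1 Dox, and CRELD2 had the largest change of the 29. CRELD2, which is retained in the ER and released under stress, had 10.33, 10.19 and 10.64 with Dox, against 11.71, 11.59 and 11.53 without. The arrays did not overlap and the fall was 2.34-fold (-1.22 ± 0.14, adjusted p = 1.08e-06). MANF, a neurotrophic factor that also binds HSPA5, had 11.07, 11.01 and 11.35 with Dox, against 12.31, 12.13 and 12.22 without, a 2.12-fold fall without overlap (-1.08 ± 0.14, adjusted p = 6.24e-06).

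Of the ERAD genes, 3 of 7 fell in 22Rv1 Dox. DERL3, a derlin of the retrotranslocation channel that is induced by XBP1, had 6.15, 6.21 and 6.47 with Dox, against 7.45, 7.16 and 7.32 without (-1.04 ± 0.15, adjusted p = 2.79e-05). A second, dimmer DERL3 probe, above background on 9 of 18 arrays, gave -0.09 ± 0.19. SEL1L, the adaptor of the ubiquitin ligase SYVN1 (HRD1), had 4.59, 4.53 and 4.73 with Dox, above background on 1 of 3 arrays, against 5.51, 5.40 and 5.61 without, on 3 of 3 (-0.89 ± 0.12, adjusted p = 1.52e-05). EDEM2, a mannosidase that marks misfolded glycoproteins, fell by 0.52 ± 0.14 (adjusted p = 0.00715), and arrays of these 3 genes did not overlap. SYVN1 itself (-0.12 ± 0.14), EDEM1 (-0.36 ± 0.17), DERL1 (-0.33 ± 0.13) and DERL2 (-0.33 ± 0.23) were not called, with adjusted p from 0.0682 to 0.586.

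In the translocation group 1 of 4 fell and 1 rose. SEC61A1, the pore of the translocon, had 10.20, 9.90 and 10.47 with Dox, against 10.70, 10.87 and 10.81 without (-0.60 ± 0.13, adjusted p = 0.00152), and SEC61B, another translocon subunit, differed by -0.05 ± 0.13 (adjusted p = 0.816). SERP1 (RAMP4), which sits at the translocon and stabilises membrane proteins under stress, had 8.59, 8.68 and 8.54 with Dox, against 8.20, 8.05 and 8.17 without, with every Dox array higher (0.46 ± 0.12, adjusted p = 0.00834). WFS1 (wolframin), an ER membrane protein of calcium handling, differed by -0.18 ± 0.14 (adjusted p = 0.396). Arrays of 15 of the 29 genes lay lower without overlap, beside 25.0% of all genes, and arrays of 3 lay higher, beside 13.9%. Leaving out 1 array, replicates 2 and 3 with Dox included, gave 15 to 19 calls, beside 18% to 31% of all genes. Of the 17 calls 14 held in every alternative run, which were 15 a gene and 14 for SEL1L; SERP1 lost its call under median scaling (adjusted p = 0.332), and P4HB and DNAJB9 lost theirs in 7 and 9 of the 15, with changes of -0.65 to -0.28 and 0.19 to 0.50.

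**Figure D2:**
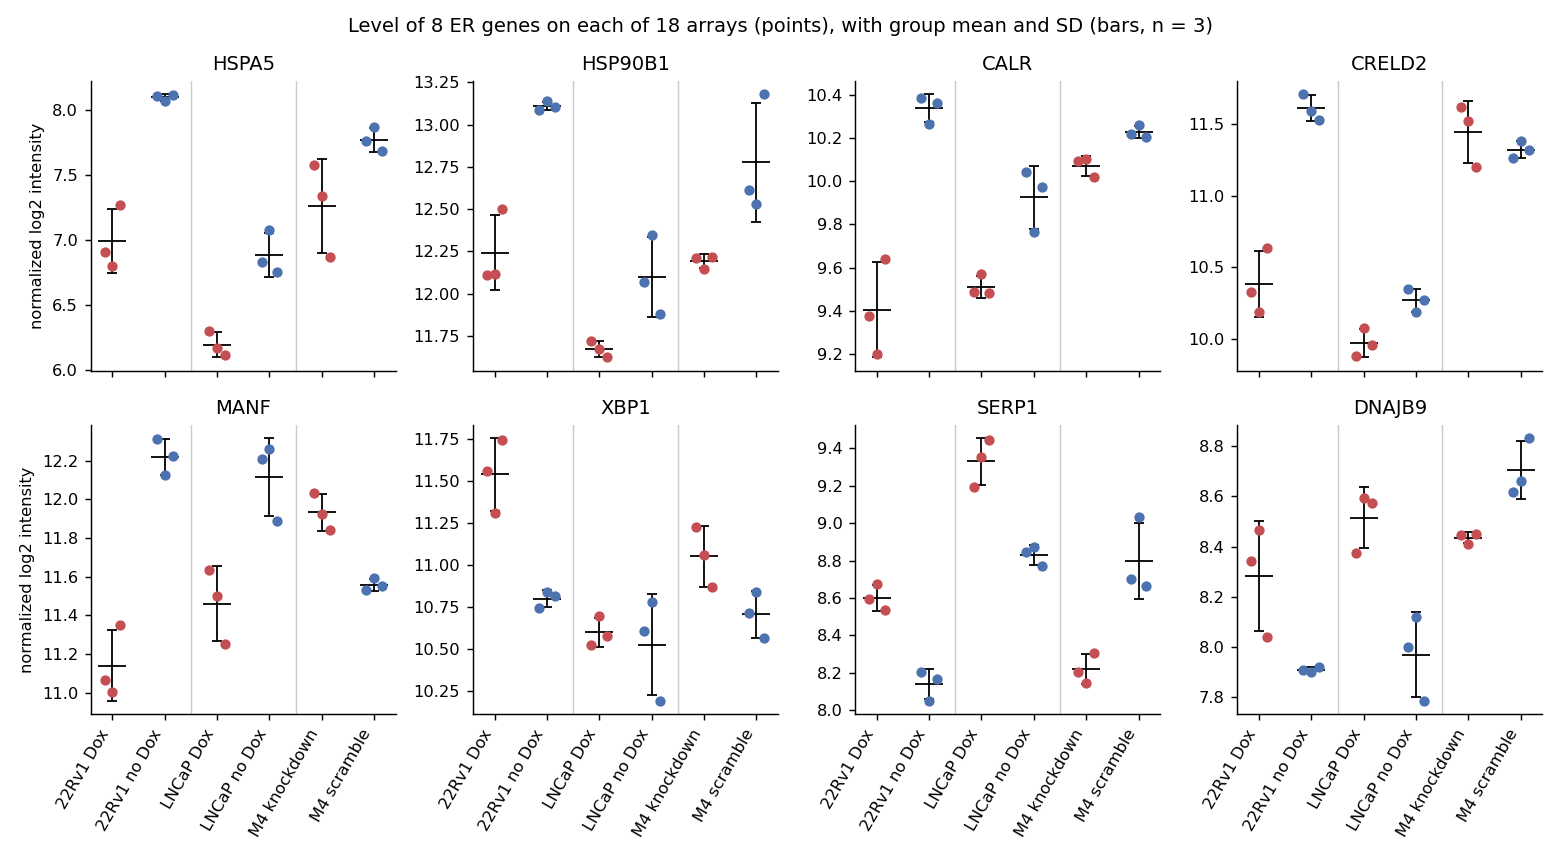
Normalized log2 intensity (y axis) of 8 ER genes on each of 18 arrays (points), by group (x axis), with the group mean and SD (bars, n = 3); each panel has its own y axis. HSPA5, HSP90B1, CALR and MANF lie lower in Dox than in no Dox in both lines, XBP1 is higher with Dox in 22Rv1, and SERP1 and DNAJB9 lie higher with Dox in both lines.

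In LNCaP, 3 of 7 HSP70 and HSP90 chaperones and co-chaperones fell with Dox and 1 rose. HSPA5 had 6.30, 6.17 and 6.12 with Dox, against 6.83, 7.08 and 6.76 without, a 1.62-fold fall without overlap (-0.69 ± 0.16, adjusted p = 0.00347). HSP90B1 had 11.72, 11.67 and 11.62 with Dox, against 12.07, 12.35 and 11.88 without (-0.43 ± 0.16, adjusted p = 0.0498), and SDF2L1 had 10.34, 10.38 and 10.14, against 10.68, 10.52 and 10.78 (-0.37 ± 0.14, adjusted p = 0.0469). Neither pair of groups overlapped, but both calls lay close to the threshold. DNAJB9 rose here too, at 8.38, 8.60 and 8.58 with Dox, against 8.00, 8.12 and 7.78 without (0.55 ± 0.13, adjusted p = 0.00418). HYOU1 (0.09 ± 0.16), DNAJB11 (-0.14 ± 0.13) and DNAJC3 (-0.24 ± 0.15) were not called, and the second HYOU1 probe gave -0.37 ± 0.17.

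Of the sensors, ATF6 was higher in LNCaP with Dox at 8.80, 8.79 and 8.84, against 8.42, 8.41 and 8.32 without, with no overlap (0.43 ± 0.14, adjusted p = 0.0322). It lost the call in 8 of 15 alternatives, among them every run that left out 1 LNCaP array. XBP1 had 10.52, 10.69 and 10.57 with Dox, against 10.60, 10.78 and 10.19 without, and was not called (0.07 ± 0.15, adjusted p = 0.777). Its second probe gave 0.38 ± 0.17.

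Of the lectin chaperones and isomerases in LNCaP, 4 of 7 fell with Dox. CANX had 6.89, 6.46 and 6.56 with Dox, against 7.12, 7.36 and 6.92 without (-0.50 ± 0.15, adjusted p = 0.0152). CALR had 9.49, 9.57 and 9.48 with Dox, against 10.04, 9.76 and 9.97 without (-0.41 ± 0.12, adjusted p = 0.0163). Arrays of both lectins were lower with Dox without overlap, as were those of P4HB (-0.52 ± 0.15, adjusted p = 0.0153) and PDIA4 (-0.41 ± 0.13, adjusted p = 0.0231). PDIA6 (-0.04 ± 0.15), ERP44 (0.18 ± 0.18) and PPIB (-0.17 ± 0.15) were not called.

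MANF had 11.63, 11.50 and 11.25 with Dox in LNCaP, against 12.21, 12.26 and 11.89 without, a 1.58-fold fall without overlap (-0.66 ± 0.14, adjusted p = 0.00172). CRELD2 had 9.88, 10.08 and 9.96, against 10.35, 10.19 and 10.27, lower on every Dox array but not called (-0.30 ± 0.14, adjusted p = 0.105). Of the ERAD genes, the ligase SYVN1 fell (-0.53 ± 0.14, adjusted p = 0.00967), although its dimmer second probe gave 0.06 ± 0.18. DERL2, a derlin, rose at 9.15, 9.21 and 9.28 with Dox, against 8.42, 7.93 and 8.45 without (0.95 ± 0.23, adjusted p = 0.00505), and its dimmer second probe gave 0.07 ± 0.17. SEC61A1 fell to 10.90, 10.95 and 10.96 with Dox, against 11.32, 11.46 and 11.49 without (-0.49 ± 0.13, adjusted p = 0.00825). SERP1 rose at 9.20, 9.35 and 9.44 with Dox, against 8.84, 8.88 and 8.77 without (0.50 ± 0.12, adjusted p = 0.00522). These 4 changes came without overlap of arrays, and 14 of the 29 genes lay lower without overlap, beside 27.8% of all genes, and 4 higher, beside 16.2%.

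The median log2 fold change of the ER genes in LNCaP Dox was -0.21, against -0.08 over all genes. The 14 calls became 5 under median scaling (MANF, HSPA5, DERL2, SYVN1 and CALR), beside 16.2% of all genes. They became 1 with the within-group axis as a covariate, where 0 of the 14 remained. Scores on that axis were 24.5 to 26.7 with Dox, against -14.5 to -3.35 without, so they did not overlap, and with it as a covariate the median SE of an ER gene was 0.17, against 0.14 without it, while 1.78% of all genes were called. DERL2 lay at the 99.2 percentile of genes for its weight on that axis. Leaving out LNCaP Dox replicate 1, 2 or 3 left 9 calls each, beside 22.9%, 19.9% and 18.6% of all genes.

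In both lines 8 ER genes fell, of 29 tested, beside 585 of all 13680 genes, and 2 rose in both, beside 202. The 8 were HSPA5, HSP90B1, SDF2L1, CALR, PDIA4, P4HB, MANF and SEC61A1, and the 2 were DNAJB9 and SERP1. None was called in opposite directions, beside 300 of all genes. The lines' Dox and no Dox arrays are different samples, so the comparisons share no control. These counts rest on the 22Rv1 labels, which LGALS4 did not bear out: with those labels exchanged, the 8 and the 2 would be calls in opposite directions and 0 would be shared.

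**Figure D3:**
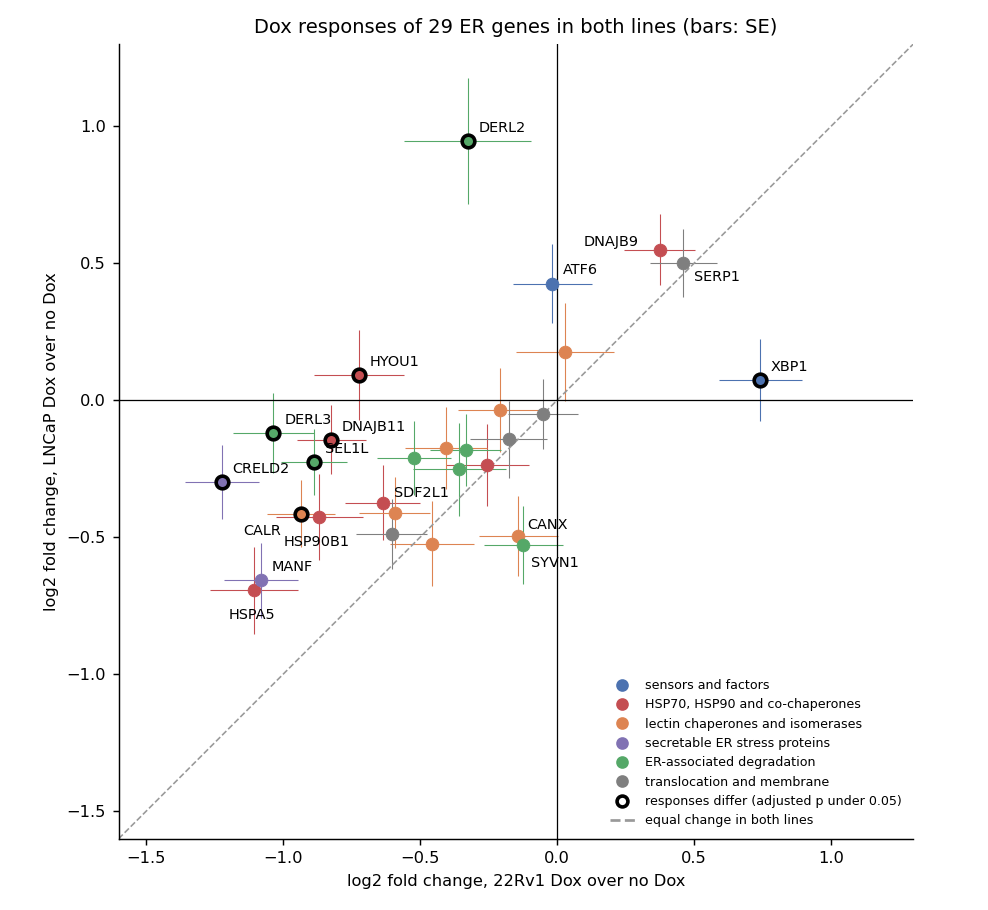
Log2 fold change of 29 ER genes with Dox over no Dox in 22Rv1 (x axis) and LNCaP (y axis), with bars of 1 SE and a dashed line where both lines changed equally. Black rings mark the 8 genes whose responses differed between lines; CRELD2, DERL3, SEL1L, DNAJB11 and CALR lie above the line among the falls, HYOU1 and DERL2 lie higher still, and XBP1 lies to its right.

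The difference between the lines was tested directly, as the 22Rv1 response minus the LNCaP response. It passed the test for 8 of 29 ER genes, 7 lower in 22Rv1 and 1 higher, 27.6% beside 18.8% of all genes (9.39% lower and 9.42% higher). CRELD2 fell by 1.22 ± 0.14 in 22Rv1 and differed by -0.30 ± 0.14 in LNCaP (difference -0.92 ± 0.19, adjusted p = 0.00172). DNAJB11 (-0.68 ± 0.18, adjusted p = 0.0102) and SEL1L (-0.66 ± 0.17, adjusted p = 0.00862) also had a lower response in 22Rv1, as did DERL3 (-0.92 ± 0.21, adjusted p = 0.00367), whose second probe gave 0.12 ± 0.26. SEL1L and DERL3 were dim in LNCaP without Dox, at 4.68 to 4.88 and 4.96 to 5.32, SEL1L above background on 1 of 3 of these arrays and on 0 of 3 with Dox. HYOU1 differed by -0.81 ± 0.23 (adjusted p = 0.0172), with a second probe at -0.62 ± 0.24. CALR fell in both lines and more in 22Rv1 (-0.52 ± 0.17, adjusted p = 0.0412). XBP1 rose more in 22Rv1 (0.67 ± 0.21, adjusted p = 0.0338), but its second probe gave 0.13 ± 0.24. DERL2 had 7.85, 8.03 and 7.06 in 22Rv1 with Dox, spread along the within-group axis, and its response differed by -1.27 ± 0.33 (adjusted p = 0.00878). Its dimmer second probe gave a smaller difference of -0.55 ± 0.24.

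HSPA5 (-0.41 ± 0.23, adjusted p = 0.223), HSP90B1 (-0.44 ± 0.22, adjusted p = 0.186) and MANF (-0.42 ± 0.19, adjusted p = 0.135) did not pass this test, and the 95% intervals of their differences were -0.88 to 0.06, -0.91 to 0.03 and -0.82 to -0.02. CRELD2, DERL2 and DNAJB11 kept the call in all 21 alternatives and SEL1L in the 20 run for it, DERL3 lost it when probes were averaged (adjusted p = 0.138) and HYOU1 without 22Rv1 no Dox replicate 2 (adjusted p = 0.0546). XBP1 and CALR lost theirs in 12 and 13 of 21. The test also rests on the 22Rv1 labels: with them exchanged, 21 ER genes would differ (18 higher, 3 lower, beside 35.8% of all genes), led by HSPA5 at 1.80 ± 0.23 and MANF at 1.74 ± 0.19.

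In the M4 knockdown, where LGALS4 was low, 8 ER genes fell and 3 rose, and PDIA4 changed most. It had 6.99, 6.97 and 6.78 in the knockdown, against 7.69, 7.83 and 7.88 in scramble, a 1.85-fold fall without overlap (-0.89 ± 0.13, adjusted p = 2.94e-05). HYOU1 had 7.79, 7.84 and 7.36 in the knockdown, against 8.21, 8.37 and 8.66 in scramble (-0.75 ± 0.16, adjusted p = 0.00198), and its second probe gave -0.82 ± 0.17. DNAJC3 had 4.78, 5.01 and 4.71 in the knockdown, against 5.37, 5.39 and 5.64 in scramble (-0.64 ± 0.15, adjusted p = 0.00357). Each of these groups was separate on all arrays.

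HSP90B1 had 12.21, 12.15 and 12.22 in the knockdown, against 12.62, 12.53 and 13.18 in scramble (-0.58 ± 0.16, adjusted p = 0.0103). The highest of these, M4 scramble replicate 3, carried the call, and without it the adjusted p was 0.0715. HSPA5 had 7.58, 7.34 and 6.87 in the knockdown, against 7.77, 7.87 and 7.69 in scramble, lower on every array but spread (-0.51 ± 0.16, adjusted p = 0.0245), and it lost the call in 5 of 15 alternatives. P4HB fell by 0.46 ± 0.15 (adjusted p = 0.0346) and lost its call in 5 of 15. DNAJB9 (-0.27 ± 0.13), DNAJB11 (-0.20 ± 0.13), SDF2L1 (0.04 ± 0.14), CALR (-0.16 ± 0.12) and CANX (-0.18 ± 0.15) were not called.

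The secretable pair did not fall in the knockdown. CRELD2 had 11.62, 11.52 and 11.20 in the knockdown, against 11.27, 11.38 and 11.32 in scramble, and was not called (0.12 ± 0.14, adjusted p = 0.559). MANF had 12.04, 11.93 and 11.84, against 11.53, 11.59 and 11.55, higher on every knockdown array (0.38 ± 0.14, adjusted p = 0.04995). EDEM1, a mannosidase of ERAD, had 7.01, 6.87 and 7.00 in the knockdown, against 6.30, 6.42 and 6.57 in scramble (0.53 ± 0.17, adjusted p = 0.0285). DERL1, a derlin, had 9.10, 8.95 and 9.07 in the knockdown, against 8.80, 8.61 and 8.54 in scramble (0.39 ± 0.13, adjusted p = 0.0348). These 3 were the only called rises, and all 3 lost the call under median scaling and with the axis as a covariate.

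DERL3 fell in the knockdown to 5.99, 6.02 and 6.25, against 6.69, 6.63 and 6.97 in scramble (-0.67 ± 0.15, adjusted p = 0.00199), with a second probe at -0.08 ± 0.19. SERP1, which had risen with Dox in both lines, fell in the knockdown to 8.21, 8.15 and 8.30, against 8.70, 9.03 and 8.66 in scramble, without overlap (-0.58 ± 0.12, adjusted p = 0.00151). XBP1 had 11.23, 11.06 and 10.87, against 10.71, 10.84 and 10.56, higher on every array but not called (0.35 ± 0.15, adjusted p = 0.106). Its second probe gave 0.52 ± 0.17, and XBP1 was called when probes were averaged and with array weights. ATF6 was not called (-0.32 ± 0.14, adjusted p = 0.111). The median change of the ER genes was -0.18, against 0.02 over all genes. Arrays of 11 of the 29 lay lower without overlap, beside 15.9% of all genes, and of 5 higher, beside 21.4%. Calls that held in all 15 alternatives were PDIA4, SERP1, HYOU1 and DERL3, and that of DNAJC3 held in the 14 run for it. Leaving out 1 array left 6 (without M4 knockdown replicate 3, beside 20.6% of all genes) to 10.

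**Figure D4:**
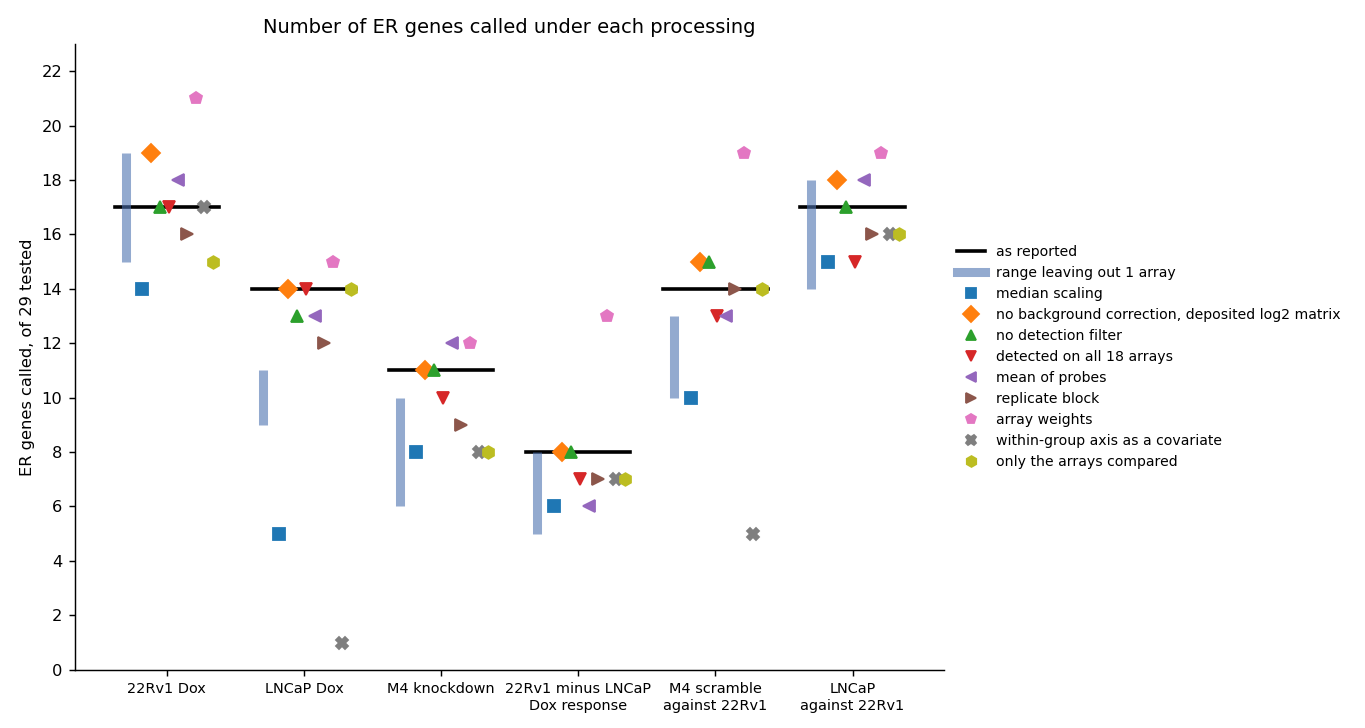
Number of the 29 ER genes called (y axis) in each of 6 comparisons (x axis), as reported (black line), under 9 other settings (symbols) and over the range when 1 array is left out (blue bar). LNCaP Dox varies most, with 14 calls as reported (beside 27.8% of all genes), 5 under median scaling (16.2%) and 1 with the within-group axis as a covariate (1.78%).

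In all, 4 ER genes were lower in all 3 comparisons (HSPA5, HSP90B1, PDIA4 and P4HB), beside 39 of 13680 genes. LGALS4 was higher with Dox in LNCaP, not called in 22Rv1 and lower in the knockdown. With the 22Rv1 labels exchanged, these 4 ER genes would be higher in 22Rv1 and no longer lower in all 3. In LNCaP Dox, HSPA5 lost its call in 1 of 15 alternatives, HSP90B1 in 9, PDIA4 in 5 and P4HB in 3. Another 5 ER genes were called in none of the 3 comparisons (PDIA6, ERP44, PPIB, SEC61B and WFS1), beside 6235 of all genes.

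The lines also differed before any treatment. LNCaP without Dox was set against 22Rv1 without Dox, and 17 of 29 ER genes were called, 8 higher and 9 lower, 58.6% beside 50.3% of all genes (23.7% higher, 26.6% lower). DERL3 had 4.96, 4.99 and 5.32 in LNCaP, against 7.45, 7.16 and 7.32 in 22Rv1 (-2.22 ± 0.15, adjusted p = 3.55e-11), while its second probe, dim in both lines, gave 0.11 ± 0.19. CRELD2 was 2.53-fold lower in LNCaP (-1.34 ± 0.14, adjusted p = 3.33e-08), and so were HSPA5 by 2.32-fold (-1.21 ± 0.16, adjusted p = 1.51e-06) and HSP90B1 by 2.02-fold (-1.01 ± 0.16, adjusted p = 1.52e-05). By the labels, each of these 4 genes was thus lower in LNCaP, without overlap of arrays, before Dox was added. LGALS4 did not bear out the 22Rv1 labels. In 22Rv1 labelled as with Dox, mean log2 levels were 6.994 for HSPA5, 12.243 for HSP90B1, 10.385 for CRELD2 and 6.276 for DERL3. Those in LNCaP without Dox were 6.889, 12.098, 10.272 and 5.089, so with the labels exchanged the first 3 differences would be far smaller. ERP44 was above background on 0 of 3 LNCaP arrays and 3 of 3 of 22Rv1, at least 2.09-fold lower (adjusted p = 3.05e-06), and its second probe gave -1.21 ± 0.15.

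WFS1 ran the other way, at 8.74, 8.45 and 8.74 in LNCaP, against 7.24, 6.98 and 7.03 in 22Rv1, a 2.96-fold difference (1.56 ± 0.14, adjusted p = 5.11e-09). The other members of the translocation group were also higher in LNCaP, with SEC61B at 12.30, 12.60 and 12.16, against 11.55, 11.51 and 11.51 (0.84 ± 0.13, adjusted p = 1.04e-05), SEC61A1 at 0.63 ± 0.13 and SERP1 at 0.69 ± 0.12. Of 21 further translocon genes 5 were higher and 5 lower, with a median of -0.05. ATF6 was also higher in LNCaP (0.65 ± 0.14, adjusted p = 0.000694), as were PPIB (0.52 ± 0.15), P4HB (0.49 ± 0.15) and PDIA4 (0.32 ± 0.13). The median difference of the ER genes was 0.04, against -0.02 over all genes. Median scaling moved the median of all genes in this comparison by -0.11 and that of the ER genes relative to it to -0.002, and PDIA4 lost its call in 7 of 15 alternatives.

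22Rv1-M4 scramble cells were set against 22Rv1 without Dox. Those arrays are also the reference of the 22Rv1 Dox and the LNCaP comparison, so these comparisons are not independent and no relation between them was tested. The choice of reference arrays rests on the 22Rv1 labels, which LGALS4 did not bear out. In this comparison 14 of 29 ER genes were called, 10 lower and 4 higher, 48.3% beside 35.4% of all genes (20.7% lower, 14.7% higher). All 7 ERAD genes tested were called, 6 of them lower, while of 20 further ERAD factors 3 were lower and 4 higher (35%, beside 35.4% of all genes). EDEM1 had 6.30, 6.42 and 6.57 in M4 scramble, against 7.31, 7.23 and 7.51 in 22Rv1 (-0.92 ± 0.17, adjusted p = 0.00029), and SEL1L had 4.89, 4.82 and 4.85, against 5.51, 5.40 and 5.61 (-0.65 ± 0.12, adjusted p = 0.000265). EDEM2 (-0.53 ± 0.14), DERL3 (-0.55 ± 0.15), DERL1 (-0.44 ± 0.13) and SYVN1 (-0.38 ± 0.14) were lower as well, but the second DERL3 probe gave 0.16 ± 0.19, and DERL3 lost its call when probes were averaged. SYVN1 lost its call in 8 of 15 alternatives and DERL1 in 4. Of the 14 calls of this comparison, 4 held in every alternative. DERL2 was higher (0.66 ± 0.23, adjusted p = 0.0313), but with the axis as a covariate the value was -0.03. Its dimmer second probe gave -0.19 ± 0.17, and the call was lost when probes were averaged. With the 22Rv1 labels exchanged, the reference means would be 4.617 for SEL1L and 6.276 for DERL3, below M4 scramble at 4.851 and 6.763. For EDEM2 and DERL1 they would be 7.441 and 8.75, against 7.433 and 8.648. EDEM1 (6.992 against 6.431) and SYVN1 (8.498 against 8.24) would remain lower in M4 scramble, and DERL2 (7.648 against 8.628) higher.

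MANF had 11.53, 11.59 and 11.55 in M4 scramble, against 12.31, 12.13 and 12.22 in 22Rv1 (-0.66 ± 0.14, adjusted p = 0.000738). DNAJB9 had 8.62, 8.66 and 8.84, against 7.91, 7.90 and 7.92, the largest rise here (0.80 ± 0.13, adjusted p = 7.28e-05), and SERP1 had 8.70, 9.03 and 8.66, against 8.20, 8.05 and 8.17 (0.66 ± 0.12, adjusted p = 0.000302). Arrays of all 3 genes were separate. Mean levels of MANF, DNAJB9 and SERP1 were 11.558, 8.705 and 8.798 in M4 scramble. They were 11.14, 8.281 and 8.601 in 22Rv1 labelled as with Dox. With the 22Rv1 labels exchanged, MANF would therefore be higher in M4 scramble on average, and DNAJB9 and SERP1 would remain higher. HSPA5 (-0.33 ± 0.16, adjusted p = 0.118), HSP90B1 (-0.33 ± 0.16, adjusted p = 0.11), CALR (-0.11 ± 0.12, adjusted p = 0.539) and CRELD2 (-0.29 ± 0.14, adjusted p = 0.108) were not called, while LGALS4 was higher in M4 scramble by 6.54 ± 0.22. The median difference of the ER genes was -0.20, against -0.05 over all genes. The 14 calls became 5, beside 18.7% of all genes, with the axis as a covariate, on which M4 scramble replicate 3 stood out.

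**Figure D5:**
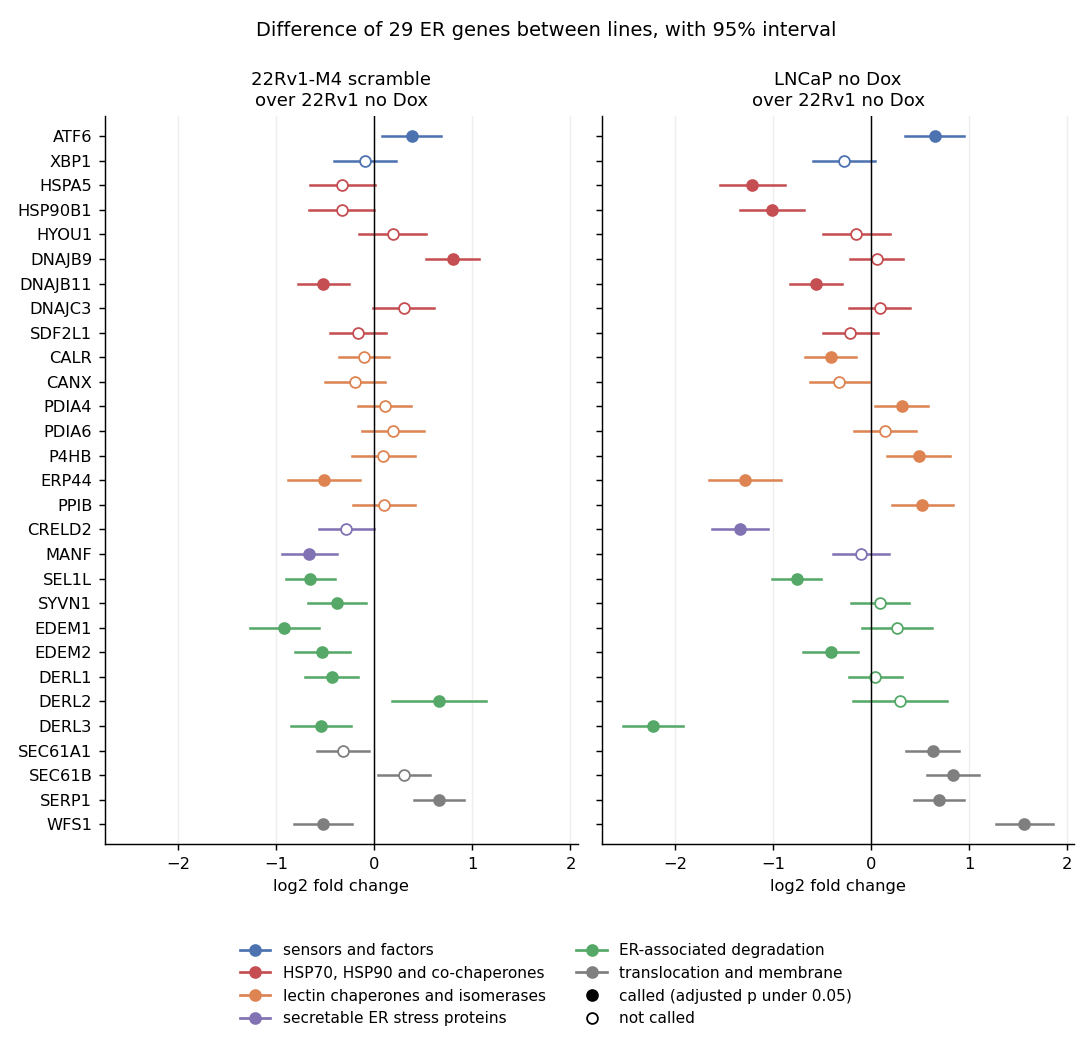
Log2 fold change (x axis, point) with its 95% interval (line) of the 29 ER genes tested, by role, for 22Rv1-M4 scramble (left) and LNCaP without Dox (right), each over 22Rv1 without Dox, with 3 arrays a group. The panels share their reference arrays; the ERAD genes lie mostly left of 0 in M4 scramble, and DERL3 and WFS1 are the outermost points in LNCaP.

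Across the groups the order of a level depended on the gene. HSPA5 averaged 6.20 ± 0.10 in LNCaP with Dox (SD, n = 3 in each group), 6.89 ± 0.17 in LNCaP without Dox, 6.99 ± 0.25 in 22Rv1 with Dox, 7.27 ± 0.36 in the knockdown, 7.77 ± 0.09 in scramble and 8.10 ± 0.03 in 22Rv1 without Dox. The neighbours LNCaP without Dox and 22Rv1 with Dox overlapped, as did 22Rv1 with Dox and the knockdown, while the other steps had separate arrays. The mean of MANF was lowest in 22Rv1 with Dox (11.14 ± 0.18) and highest in 22Rv1 without Dox (12.22 ± 0.09). Arrays of the lowest group overlapped LNCaP with Dox, and those of the highest overlapped LNCaP without Dox. The mean of SERP1 was highest in LNCaP with Dox (9.33 ± 0.13) and lowest in 22Rv1 without Dox (8.14 ± 0.08), where arrays overlapped those of the knockdown. All are log2 levels of 1 probe, and levels of different genes are not compared.

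The genes were split by whether their promoter held an ER stress element or ERSE-II, 10 with and 17 without among those tested. In 22Rv1 Dox, 6 of the 10 with an element fell and 2 rose, with a median of -0.68, and 7 of the 17 without fell and 1 rose, with a median of -0.36. In LNCaP Dox the medians were -0.34 with an element (5 fell, 1 rose) and -0.21 without (5 fell, 3 rose). In the knockdown they were -0.22 (4 fell, 0 rose) and -0.17 (3 fell, 2 rose). Of all genes, 15.7% fell and 9.14% rose in 22Rv1 Dox, 17.0% and 10.9% in LNCaP Dox, and 10.3% and 13.0% in the knockdown. The medians of all genes were -0.06, -0.08 and 0.02. The split was not tested, and both groups held genes that moved in either direction in 22Rv1 Dox.

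The other genes of the pathway came from lists of 117 ER genes, of which 108 were tested. In 22Rv1 Dox 19 fell and 6 rose (23.1% called, beside 24.8% of all genes), a share near the background. SRPRB (-1.08 ± 0.12) and SRPRA (-0.70 ± 0.16), the receptor of the signal recognition particle, and SSR4 (-0.82 ± 0.16), a translocon-associated subunit, were the largest of 4 falls among 21 translocon genes. Of 26 other folding and disulfide genes 7 fell and 3 rose, among them the prolyl isomerase FKBP14 (1.62 ± 0.26), the oxidase ERO1A (0.75 ± 0.16) and HSPA13 (0.76 ± 0.27). UGGT1, which returns misfolded glycoproteins to the lectins, fell (-0.64 ± 0.19) among 2 of 10 genes of the glycoprotein cycle (20%). It was dim with Dox, at a mean of 4.92 and above background on 2 of 3 arrays, against 5.56 without. NPLOC4, a cofactor of extraction from the ER, fell (-0.72 ± 0.15) among 2 of 20 ERAD genes, with 1 rise. NUCB1, a calcium-binding protein, fell (-0.76 ± 0.18) and the retrieval receptor KDELR3 rose (0.55 ± 0.13). Of 15 genes of the other sensors and the PERK arm, 2 fell and 0 rose: ASNS (-0.51 ± 0.11) and MBTPS1, the protease that cuts ATF6 (-0.46 ± 0.14).

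In LNCaP Dox 20 of the 108 fell and 20 rose (37%, beside 27.8% of all genes). Here 6 of 15 genes of the other sensors and the PERK arm rose, led by DDIT3 (CHOP), a factor of stress-induced cell death (1.66 ± 0.23), and 2 fell. DDIT3 also responded differently between the lines (difference -1.55 ± 0.32). Of 21 translocon genes 6 rose, among them the signal peptidase subunits SEC11C (0.87 ± 0.17) and SEC11A (0.74 ± 0.14), and 2 fell. UGGT1 fell (-1.11 ± 0.19), and CLGN, a calnexin relative, rose (1.23 ± 0.25). In the knockdown 16 fell and 13 rose (26.9%, beside 23.3%), with DDIT3 (-1.21 ± 0.23), HSPA13 (-1.56 ± 0.27) and SEC11C (-0.98 ± 0.17) lower and PPP1R15A (GADD34), which ends the PERK arm's block on translation (0.86 ± 0.14), higher. Values in these 2 paragraphs are log2 fold changes with SE, all called at an adjusted p under 0.05. The lists were chosen with earlier results of these data known.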

How the data were processed

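Illumina bead arrays measured total RNA in 18 samples, and the groups come from the sample labels. The deposited table held an unnormalized intensity and a detection p-value for each of 47303 probes and each array, per the file headers. A deposited log2 matrix of the same arrays served as an alternative. Its normalization is not given in the sources used here. Of its 851454 values, 114 lay more than 0.01 from quantile-normalized log2 intensities without background correction. Probes were named from the platform annotation: 30103 had 1 gene symbol, 8 several and 17192 none.

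Intensities were background-corrected with normexp, quantile-normalized and put on the log2 scale by neqc (limma 3.58.1, R 4.3.3, statmod 1.5.0, offset 16). Probes with a detection p under 0.05 on at least 3 of 18 arrays were kept, with the brightest probe per gene. One limma model with 6 group means gave every comparison, with 12 residual and 8.73 prior degrees of freedom, and Benjamini-Hochberg adjustment over 13680 genes. The number of arrays limits the precision. The fit was tested on simulated data.

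The text names LGALS4, all 32 ER genes, the markers of the lines and, from each of 6 further ER lists, up to 3 called genes with the largest change per comparison. The members and lists were chosen with earlier results of these data known. Alternatives were median scaling, the deposited matrix, 2 other detection filters, the mean of probes, array weights, the replicate number as a block, the within-group axis as a covariate, only the arrays compared, and leaving out each array.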

Additional observations from a re-analysis of the deposited data

Results flagged for a closer look

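In 8 ER genes the Dox response differed between the lines by the test of the difference itself, given as the 22Rv1 response minus the LNCaP response on the log2 scale (limma, adjusted over all genes). The difference was -0.924 for CRELD2 (adjusted p = 0.00172), -0.917 for DERL3 (adjusted p = 0.00367) and -0.663 for SEL1L (adjusted p = 0.00862). It was -1.272 for DERL2 (adjusted p = 0.00878), -0.681 for DNAJB11 (adjusted p = 0.0102) and -0.814 for HYOU1 (adjusted p = 0.0172). It was 0.667 for XBP1 (adjusted p = 0.0338) and -0.521 for CALR (adjusted p = 0.0412). Second probes gave -0.55 for DERL2, 0.12 for DERL3, -0.62 for HYOU1 and 0.13 for XBP1. CRELD2, SEL1L, DERL2 and DNAJB11 kept the call in every alternative that kept the labels. SEL1L was above background on 0 of 3 LNCaP arrays with Dox and 1 of 3 without, so its LNCaP response has only a bound and the size of its difference is uncertain. All of these rest on the labels of the 22Rv1 arrays, where LGALS4 did not differ (-0.06, adjusted p = 0.874). With those labels exchanged, HSPA5 (1.80), MANF (1.74), CRELD2 (1.52), CALR (1.35) and HSP90B1 (1.29) would have the largest differences, and that of DERL2 (-0.62, adjusted p = 0.147) would not be called.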

How the results depend on the processing

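Of the 29 ER genes, 14 were called in LNCaP Dox as reported, beside 27.8% of all genes. With median scaling 5 were called, beside 16.2%, and with the within-group axis as a covariate 1, beside 1.78%. When 1 array was left out 9 to 11 were called, beside 18.6% to 22.9%. In the M4 knockdown, 11 became 6 to 10 when 1 array was left out, beside 16.9% to 21% of all genes. The 6 came without M4 knockdown replicate 3, beside 20.6%. For the difference between the Dox responses, 8 became 13 with array weights, whose fit gave a convergence warning (beside 34.2% of all genes). When 1 array was left out 5 to 8 were called, beside 14.3% to 23.2%. With the 22Rv1 labels exchanged, an alternative chosen after seeing the data, 21 were called, beside 35.8%. Of the 8, 0 then kept their call and direction. In M4 scramble against 22Rv1, 14 became 5 with the axis as a covariate (beside 18.7% of all genes), under which DERL2 reversed, at -0.034. The causes were not tested. With the replicate block the counts were 16 in 22Rv1 Dox, 12 in LNCaP Dox and 9 in the M4 knockdown, beside 23.1%, 25.9% and 21.8% of all genes. By a measure other than the correlation of levels given above, same-numbered arrays correlated at -0.105 to 0.111. With 3 arrays a group this cannot decide whether the numbers mark a shared culture or batch. Over all genes, calls with array weights were 6582 against 3394 in 22Rv1 Dox, 4921 against 3193 in the knockdown and 4673 against 2572 for the difference; with median scaling they were 2213 against 3809 in LNCaP Dox, 1926 in the knockdown and 1707 for the difference; with the axis, 243 in LNCaP Dox and 2558 against 4849 in M4 scramble against 22Rv1. Median scaling moved the share of called genes that were higher to 25.3% from 36.8% in 22Rv1 Dox, 34.9% from 55.7% in the knockdown, 38.5% from 50.1% for the difference and 34.2% from 47.1% in LNCaP against 22Rv1. It also put the ER genes' median in M4 scramble against 22Rv1 at 0.029 above that of all genes, against -0.144 as reported. SEL1L, ERP44, DNAJC3 and, of the further ER lists, UGGT1 were near or below background on some arrays, which limits how far a fall can be read.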

Other observations

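Outside the 32 ER genes, 33 genes held an ER stress element or ERSE-II in their promoter, and 19 of them were tested. Some of these, such as NUCB1, also belonged to the further ER lists. In 22Rv1 Dox 3 fell and 1 rose (median -0.13), in LNCaP Dox 6 fell and 2 rose (-0.15), and in the M4 knockdown 1 fell and 4 rose (0.08). Of all genes, 24.8%, 27.8% and 23.3% were called in these comparisons, with medians of -0.06, -0.08 and 0.02. FICD, which attaches AMP to HSPA5 and removes it, differed by -1.38 with Dox in 22Rv1 (limma, adjusted p = 7.4e-06), by -0.54 in LNCaP (adjusted p = 0.0261) and by 0.59 in the knockdown (adjusted p = 0.0174). NUCB1 differed by -0.76 in 22Rv1 (adjusted p = 0.00397), by -0.63 in LNCaP (adjusted p = 0.0141) and by 0.19 in the knockdown (adjusted p = 0.502). Both genes were chosen after their values were seen.

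The element of CRELD2 lies at the same bases in the promoter of ALG12, a mannosyltransferase whose start site is 196 bases away. CRELD2 changed by -1.22 with Dox in 22Rv1, while ALG12 differed by -0.13 (limma, adjusted p = 0.662). The element of SERP1 is likewise shared with EIF2A, whose start site is 291 bases away. SERP1 rose in both lines (0.46 in 22Rv1 and 0.50 in LNCaP), while EIF2A differed by -0.01 in 22Rv1 (adjusted p = 0.971) and by 0.98 in LNCaP (adjusted p = 0.00141).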
